A study of Rattus norvegicus with 35 samples.

Results

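The comparison described here set the unexposed lung of rats heterozygous for p53 against the unexposed lung of wild-type rats. Its members were 12 of the 35 arrays of the series, taken by their titles: the 6 vehicle arrays of the rats labelled GMO [heterozygous for p53] and the 6 vehicle arrays of the wild-type (WT) rats. All were female Sprague Dawley rats, 12 weeks old when instillation began. The labels give intratracheal instillation weekly over 4 weeks, and name Pluronic as the vehicle of the control rats. The accessory lobe of the lung was taken at day 3 after exposure, kept in RNAlater, and its total RNA was hybridised to a one-colour Agilent array. The other 23 rats of the series received the multi-walled carbon nanotubes Mitsui-7 (6 WT and 6 heterozygous) or NM-403 (6 WT and 5 heterozygous) at 0.25 mg per rat, and they appear below only beside the unexposed rats. The sources used here do not say how the p53 allele was altered, whether the WT rats were littermates, or whether any RNA was pooled. P-values therefore measure the spread between these arrays.

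p53 is a transcription factor that is held at a low level in unstressed cells, because the ubiquitin ligase Mdm2 marks it for degradation. DNA damage and other stresses stabilise the protein, which then switches on genes for cell cycle arrest (Cdkn1a, which encodes p21), apoptosis (Bax, Bbc3, Pmaip1), DNA repair (Ddb2, Xpc) and its own control (Mdm2). These target genes are the usual readout of its activity. In the unexposed lung the question is whether 1 altered copy changes the resting transcriptome at all.

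Each array carried 58717 spots outside the control spots. Between 68.5% and 74.6% of them were well above background on the 12 arrays, and no spot was saturated. Values are log2 signals relative to the 75th percentile of the same array, so a level of 0 lies at that percentile, and every difference is p53het minus WT on the log2 scale. The arrays came from 5 slides, each of which held at least 1 array of both genotypes, and slide was a term of the model. Deviations from the genotype means correlated at a mean of 0.28 between WT and heterozygous arrays of the same slide (7 pairs) and at -0.06 between those of different slides (29 pairs). One array stood apart by its content: WT replicate 2 had the highest level of 12 of 14 skeletal muscle genes and of 9 of 12 adipocyte genes among the 12 arrays. Another, p53het replicate 6, had the lowest mean correlation with the other controls (0.959, against 0.975 to 0.982 for the rest). The array number limits the precision of everything that follows.

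The genotypes differed very little. With limma's moderated test and Benjamini-Hochberg adjustment at 0.05, 0 of 24473 genes were called (0% of the genes tested). The smallest adjusted p was 0.0688, for Edn1. At an unadjusted p under 0.05 there were 1140 genes, 4.66% of those tested. Of these, 707 were higher (2.89%) and 433 lower (1.77%) in the heterozygous rats. That split rested on the scaling: 62.0% were higher here, 50% after quantile normalization, 34.2% with the array median, 84.6% after normexp background correction and 29.7% in the authors' values. In only 23 genes (0.094%) did the 6 heterozygous arrays all lie on one side of the 6 WT arrays. Fits of the 12 control arrays alone also called 0 genes, with slide (1025 at an unadjusted p under 0.05) and without it (476). A fit that weighted the arrays by their quality called 5 genes: Edn1, Lrp12 and Cp higher, Galnt14 and LOC102556969 lower.

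The size of the differences can be bounded for most genes. The median absolute difference over all genes was 0.091, a 1.07-fold change, and 95% of genes lay within 1.37-fold. Past 1.5-fold in either direction were 649 genes (2.65%), and past 2-fold 97 genes. Most of these were dim: of the 19807 genes well above background on all 12 arrays, 135 were past 1.5-fold and 15 past 2-fold. The 95% confidence interval of the difference lay wholly within 1.5-fold for 71.4% of all genes and for 86.7% of those bright genes. It lay within 2-fold for 88.6% and 97.4%. For the 4666 genes not well above background on all 12 arrays, it lay within 1.5-fold in 6.7% and within 2-fold in 51.1%. A gene of median standard error (0.13) would have needed a difference of 0.78, or 1.72-fold, to be called as the only such gene. Genes of smaller standard error could be called at smaller differences.

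**Figure D1:**
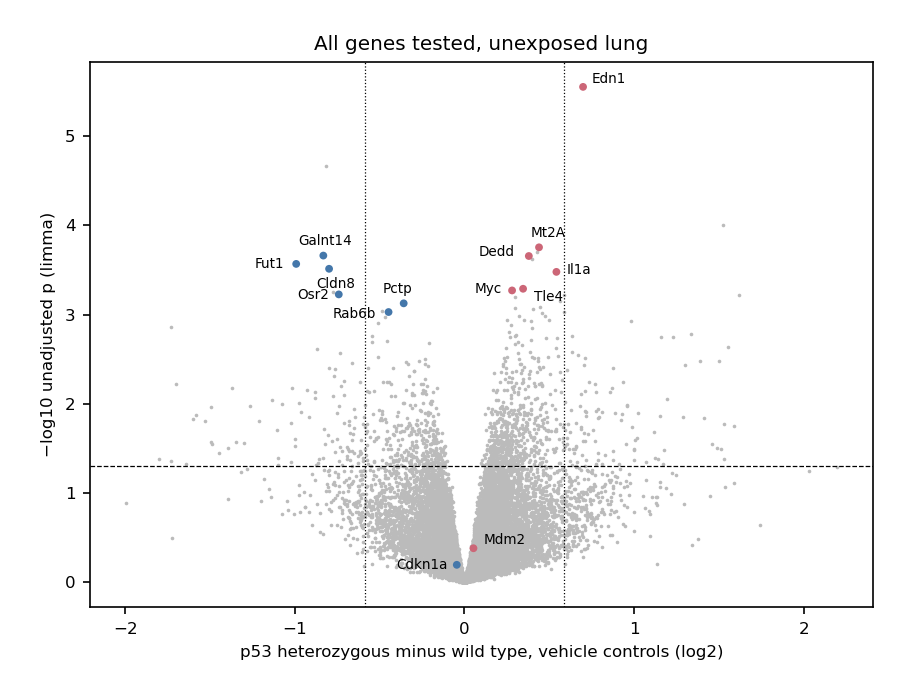
Each point is 1 of the 24473 genes tested, at its log2 difference (p53 heterozygous minus wild type, x axis) and the −log10 of its unadjusted limma p (y axis). Dotted lines mark 1.5-fold and the dashed line an unadjusted p of 0.05; the named genes are in red (higher) and blue (lower), and Edn1 stands highest with an adjusted p of 0.0688.

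The targets of p53 were near to no difference. Of 35 targets on the list, 33 passed the filter on dim probes, and none was called. The list's median difference was 0.06, against 0.02 over all genes, with 21 of 33 higher (63.6%, against 55.2% of all genes). The 95% interval lay within 1.5-fold for 31 of the 33 targets and within 2-fold for all 33. The 2 targets whose intervals passed 1.5-fold were Psrc1, which encodes a spindle protein and was well above background on only 1 of the 12 arrays, so that its interval bounds no difference in expression, and Rrm2b, a subunit of ribonucleotide reductase. Within the slides the median ran from 0.02 to 0.11.

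Cdkn1a, the p21 inhibitor of cyclin-dependent kinases, ranged from 0.06 through 0.29 to 0.47 in WT and from -0.16 through 0.33 to 0.52 in heterozygous lung. Its difference was -0.05 (95% interval -0.24 to 0.15), and its sign changed when slide was left out of the model (0.01). Mdm2 ranged from -1.21 through -0.85 to -0.75 in WT and from -1.08 through -0.87 to -0.64 in heterozygous lung, a difference of 0.05 (interval -0.08 to 0.19). The groups overlapped for both genes.

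Of the 33 targets tested, 4 had an unadjusted p under 0.05 (against 4.66% of all genes), or 2 without WT replicate 2. The smallest adjusted p of the list was 0.935. Tp53inp1, which encodes a stress-induced partner of p53, was at -1.37 (median) in WT and -1.12 in heterozygous lung, a difference of 0.26 ± 0.10. It was higher on 5 of 5 slides. Bbc3, which encodes the proapoptotic protein PUMA, was at 0.05 in WT and -0.14 in heterozygous lung, a difference of -0.30 ± 0.09, and lower on 5 of 5 slides. The other 2, Plk3 (0.18), a stress-responsive kinase, and Rps27l (0.14), a ribosomal protein gene induced by p53, were higher. For Bbc3, 4 of the 6 heterozygous arrays lay below every WT array, and 1 lay above every WT array for Tp53inp1.

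**Figure D2:**
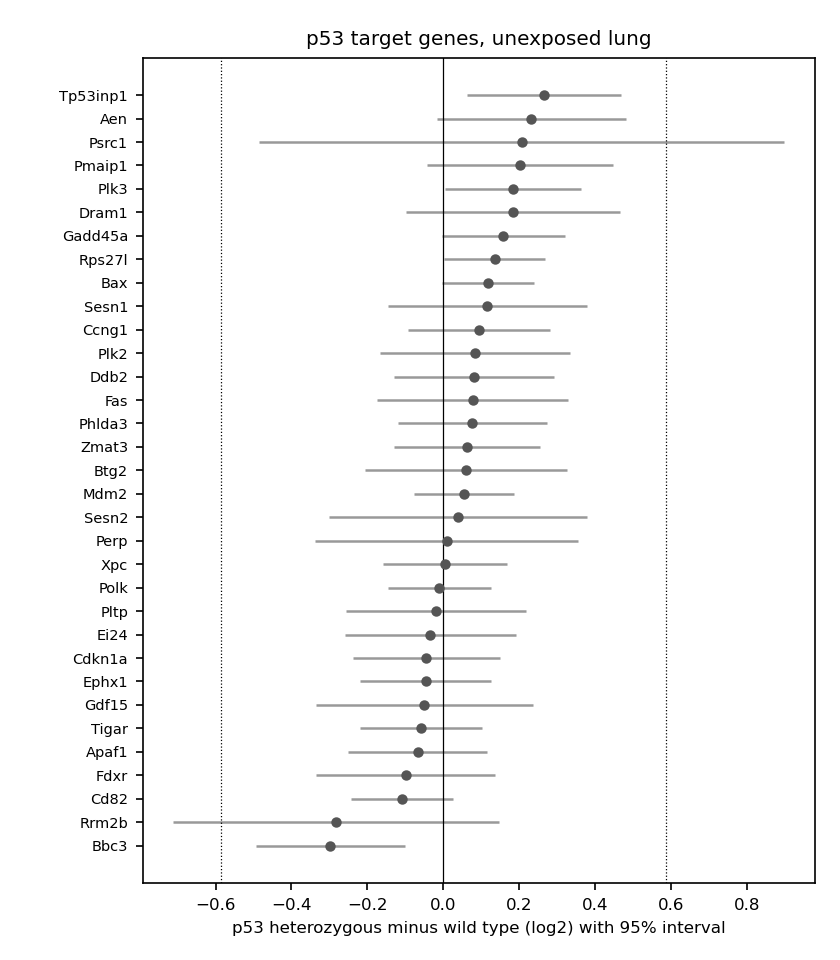
Points are the log2 differences (p53 heterozygous minus wild type, x axis) of the 33 p53 targets tested, and bars are their 95% confidence intervals from the limma fit. All intervals but those of Psrc1 and Rrm2b lie between the dotted lines at 1.5-fold.

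The regulators and relatives of p53 gave the same picture. All 20 on the list passed the filter, 0 were called and 14 of 20 had estimates above 0, with a median of 0.04. That median was 0.0025 without p53het replicate 4 and 0.07 without WT replicate 4. Chek1, a checkpoint kinase that acts on p53 after replication stress, was 0.40 higher, and Atr, the kinase above it, 0.17 higher. Both had an unadjusted p under 0.05 (0.0012 and 0.022), and the smallest adjusted p of the list was 0.804. Mdm4, the partner of Mdm2 that also restrains p53, differed by 0.08, and Atm by 0.01. For apoptosis genes the median was 0.02 (12 of 20 above 0), for DNA repair genes 0.06 (22 of 28), for senescence and growth arrest genes 0.00 (7 of 13) and for mitotic cell cycle genes 0.10 (30 of 35). The last of these ran from 0.03 to 0.22 over the arrays and slides left out.

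Since nothing was called, the genes nearest to a call are given as values. The 6 of smallest p in each direction, among genes with a symbol whose higher genotype was above background throughout, were Edn1, Mt2A, Dedd, Il1a, Tle4 and Myc (higher) and Galnt14, Fut1, Cldn8, Osr2, Pctp and Rab6b (lower).

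Edn1 encodes endothelin-1, a vasoconstrictor peptide made in the lung by endothelial and airway cells. It ranged from -2.98 through -2.60 to -2.32 in the WT rats and from -2.39 through -2.19 to -1.39 in the heterozygous rats. Of the 6 heterozygous arrays, 5 lay above every WT array. The difference was 0.70 ± 0.12 (1.62-fold), and it lay between 0.56 and 0.93 on each of the 5 slides. Its adjusted p of 0.0688 became 0.046 without p53het replicate 3 and 0.025 with array weights. Over all alternatives and left-out arrays, the difference stayed between 0.58 and 0.76. The adjusted p was near 1 in the fits with no slide term (difference 0.63) and without slide 3 (0.71). In the exposed rats Edn1 differed by 0.16 under Mitsui-7 and by 0.23 under NM-403, and neither was called.

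The other 5 genes of smallest p among the higher estimates had differences from 0.28 to 0.54. Mt2A, which encodes a metal-binding metallothionein, had a median of 0.37 in WT and 0.71 in heterozygous lung (difference 0.44 ± 0.10), with 4 of 6 heterozygous arrays above every WT array. Myc, the growth-promoting transcription factor, had medians of -1.46 and -1.17 (difference 0.28 ± 0.07) and was higher on 5 of 5 slides. Il1a, the alarmin interleukin-1 alpha, varied more between rats: the heterozygous arrays ran from -0.89 to 1.14 and the WT arrays from -0.82 to 0.30. Its difference was 0.54 ± 0.13, although 1 heterozygous array lay below every WT array. Dedd, which encodes a death-effector-domain protein, differed by 0.38 ± 0.09, and Tle4, a corepressor, by 0.35 ± 0.09. Their adjusted p ran from 0.734 to 0.804.

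Among the lower estimates the largest was Fut1, which encodes a fucosyltransferase of blood group H antigen, at -0.99 ± 0.24. It ran from -6.32 to -5.33 in WT and from -7.26 to -5.83 in heterozygous lung, where 1 of 6 arrays was not well above background. Galnt14, which encodes an enzyme that starts O-linked glycan chains, ran from -4.29 through -3.95 to -3.57 in WT and from -5.38 through -4.71 to -4.12 in heterozygous lung. Of the 6 heterozygous arrays, 5 lay below every WT array. The difference was -0.83 ± 0.20 (1.78-fold) with an adjusted p of 0.734, and it was called only with array weights (0.032). It was lower in the exposed heterozygous rats too, by estimates of -0.62 (Mitsui-7) and -0.38 (NM-403) that were not called. Of the 12 genes of smallest p, 9 had the same sign under Mitsui-7 and 5 under NM-403 (all genes: 50.9% and 47.2%). With an unadjusted p under 0.05 as well, there were 6 under Mitsui-7 and 0 under NM-403. Over all 24473 genes, 1241 and 427 met that condition. The fit shares 1 estimate of each gene's spread between all groups. Genes chosen for a small p in vehicle therefore tend to have a small spread and a smaller p under exposure too. The counts for the 12 genes are thus not comparable with those over all genes.

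Cldn8, a tight junction claudin, differed by -0.80 ± 0.19 and Osr2, a zinc-finger transcription factor of development, by -0.74 ± 0.19. Rab6b, a GTPase of Golgi transport, differed by -0.45 ± 0.12 and Pctp, a phosphatidylcholine carrier, by -0.36 ± 0.09. Another probe of Pctp, above background on all 35 arrays, gave -0.21, and a dimmer probe of Cldn8 gave -0.61. Galnt14, Fut1, Osr2 and Rab6b were lower on 5 of 5 slides, Cldn8 and Pctp on 4 of 5. Over the 5 slides, 919 of all genes were higher and 678 lower on every slide, together 6.53% of those tested.

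**Figure D3:**
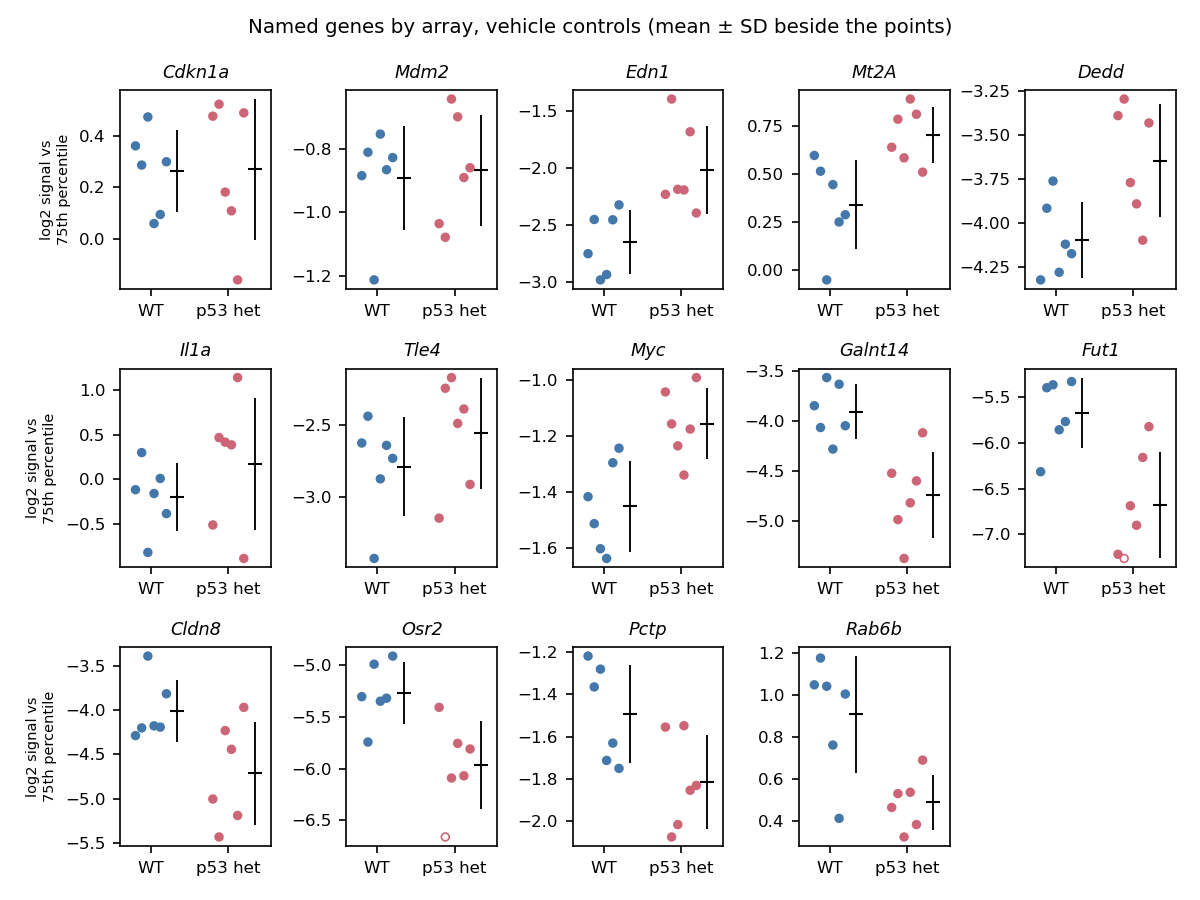
Each panel plots 1 gene: Cdkn1a, Mdm2 and the 12 genes of smallest p. Points are the 6 WT (blue) and 6 p53 heterozygous (red) arrays, on a log2 scale relative to the array's 75th percentile; open points were not well above background, and the bar is the mean ± SD. The groups touch or overlap in every panel, with 5 of 6 heterozygous arrays beyond all WT arrays for Edn1, Myc, Galnt14 and Osr2.

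Some larger folds than these belonged to genes that varied strongly between rats of the same genotype. Of the 15 bright genes past 2-fold, 4 carry a symbol, and they are named here after their values were seen. Fam111a, which encodes a protease that acts at replication forks, had the largest estimate (1.74 ± 1.41). Its levels fell into 2 ranges in both genotypes, from -6.21 to -4.90 in 4 WT and 2 heterozygous rats and from -2.15 to -0.00 in 2 WT and 4 heterozygous rats. Simc1, a SUMO-binding protein gene, had an estimate of -1.49 ± 0.55. It ran from -2.37 to -0.91 in WT, while 4 of 6 heterozygous arrays lay between -4.52 and -3.73 and 1 reached -0.34, above every WT array. Car3, a carbonic anhydrase abundant in muscle and fat, had an estimate of -1.04, and Defb5, a beta-defensin, of 1.09. None of the 4 was called.

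Markers of cell types were then compared list by list. In bulk tissue, fewer cells of a type and less RNA per cell cannot be told apart. In all, 52 lists (24 of pathways and 28 of cell types) with 844 distinct genes were read, and none held a called gene. Medians were above 0 in 30 of the 52 lists, and estimates were above 0 in 55.2% of all genes. They exceeded 0.2 in size in 7: B cell, T cell, interferon-stimulated and immediate early genes upward, and adipocyte, club and secretory cell and mast cell and basophil genes downward. Under the 4 other scalings, these 7 medians kept their sign wherever a value was obtained. The B cell median fell close to 0 in the authors' values, which hold only some of its genes. In all, 23 lists changed sign under at least 1 scaling, none with a median over 0.121 in size. The lung's own defining markers were in place, with all 14 alveolar type 2 and all 11 alveolar type 1 markers tested above background on every control array.

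**Figure D4:**
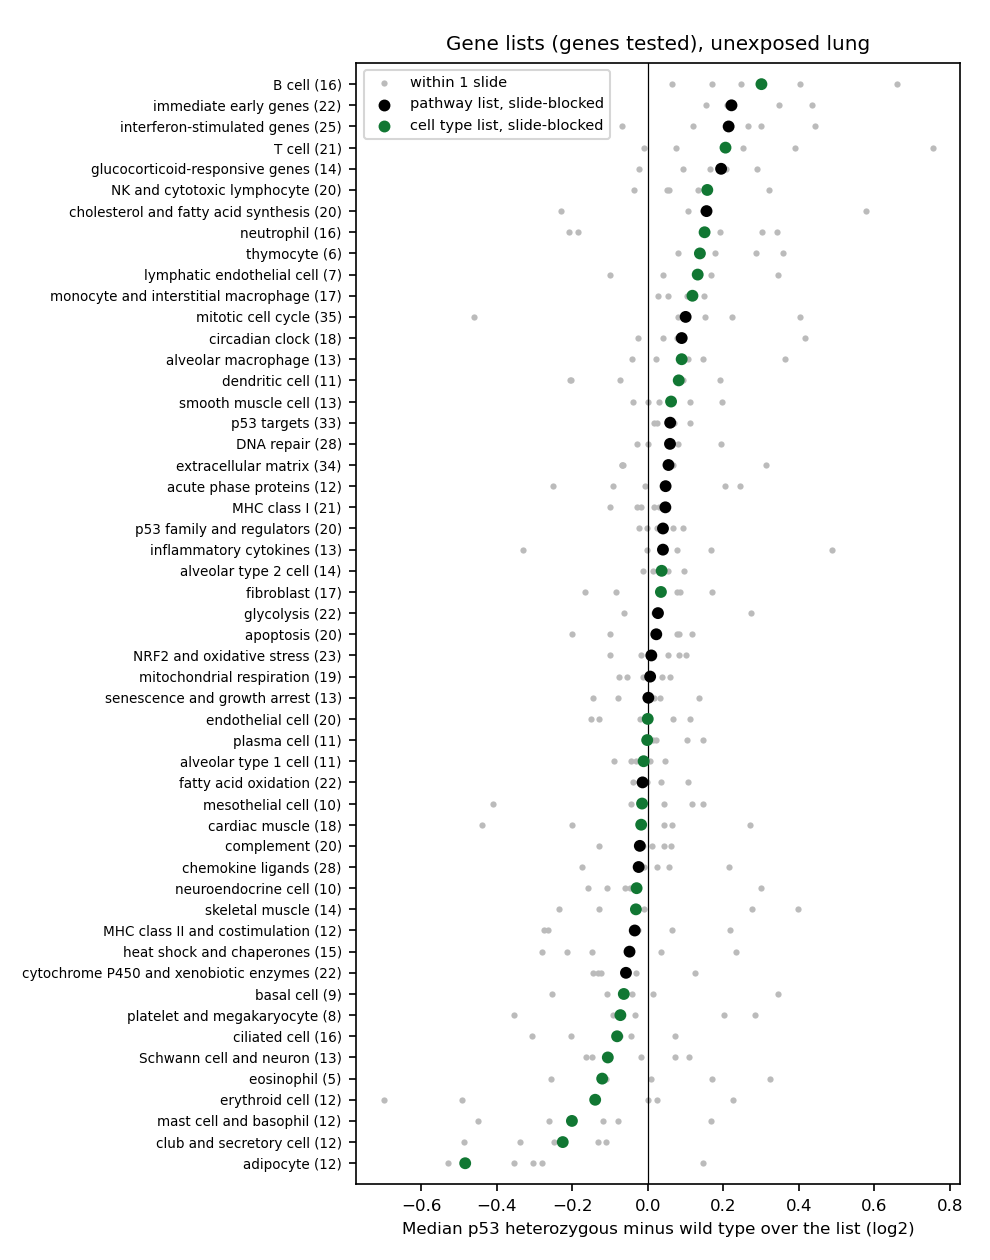
Large points are the slide-blocked median log2 difference (p53 heterozygous minus wild type) over the tested genes of each list, pathways in black and cell types in green, and grey points are the same median within each of the 5 slides. Medians run from -0.48 (adipocyte) to 0.30 (B cell), and for most lists the slides lie on both sides of 0.

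Markers of the main structural cells of the lung had medians near 0. Alveolar type 2 cells make surfactant, and their markers had a median of 0.04 with 14 of 14 intervals within 1.5-fold. Among them Sftpc, the surfactant protein C gene, differed by 0.09 and Sftpb by 0.03. Alveolar type 1 cells, the thin gas-exchange cells, had a median of -0.01 with 11 of 11 intervals within 1.5-fold. Endothelial markers had a median of 0.00 (10 of 20 above 0), fibroblast markers of 0.03 (9 of 17) and smooth muscle markers of 0.06 (10 of 13). Lymphatic endothelial markers lay further from 0, with a median of 0.13 (6 of 7 above 0) that ran from 0.03 to 0.21 over the arrays and slides left out.

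Among the cell type lists, those of B cells and T cells had the highest medians. B cell genes had a median of 0.30, and 14 of 16 were above 0 (87.5%, against 55.2% of all genes). Of the 16, 5 had an unadjusted p under 0.05, all higher, against 2.89% of all genes. Cd79a, which encodes a signalling chain of the B cell receptor, ran from -4.37 through -4.14 to -3.93 in WT and from -4.36 through -3.48 to -3.25 in heterozygous lung. Of the 6 heterozygous arrays, 5 lay above every WT array, and the difference was 0.54 ± 0.16, higher on 5 of 5 slides.

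Fcer2, the low-affinity IgE receptor of mature B cells, differed by 0.50 ± 0.16, and Fcrla, an Fc receptor-like gene, by 0.59 ± 0.25. Ms4a1, which encodes CD20, differed by 0.31 ± 0.16. The member furthest the other way, Cd22, a sialic acid-binding inhibitor of the B cell receptor, was at 3.83 in WT replicate 1 and between -0.39 and 0.42 on the other 11 arrays. Its difference of -0.62 became 0.01 without that array. The array scores, medians of the members' deviations from their means, ran from -0.42 to 0.09 in WT and from -0.22 to 0.33 in heterozygous lung and overlapped. Within the slides the B cell median was 0.06, 0.17, 0.25, 0.66 and 0.40. In the authors' deposited values, which hold 5 of the 16 genes, it was 0.01. Markers of antibody-secreting plasma cells did not share the shift, with a median of 0.00 and 5 of 11 above 0.

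T cell genes had a median of 0.21 with 18 of 21 above 0. Of the 21, 4 had an unadjusted p under 0.05, all higher, against 2.89% of all genes. Cd3e, a chain of the T cell receptor complex, ran from -5.37 through -4.95 to -4.56 in WT and from -4.63 through -4.19 to -4.03 in heterozygous lung. Of the 6 heterozygous arrays, 4 lay above every WT array. The difference was 0.63 ± 0.19, and it lay between 0.50 and 0.89 within the slides. The coreceptor genes of cytotoxic T cells, Cd8a (0.33 ± 0.12) and Cd8b (0.38 ± 0.13), were higher, while Cd4, the helper coreceptor, differed by -0.18. Natural killer and cytotoxic lymphocyte genes had a median of 0.16 (17 of 20 above 0), with granzyme B, Gzmb, at 0.47. The smallest adjusted p of the T cell list was 0.935. Over the arrays and slides left out in turn, the T cell median ran from 0.14 to 0.33 and the natural killer median from 0.07 to 0.22. Thymocyte genes, which mark developing T cells, had a median of 0.14 (5 of 6 above 0), from 0.08 to 0.19 over the same.

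Markers of the other leukocytes had medians on both sides of 0. Neutrophil genes had a median of 0.15 (14 of 16 above 0), with none at an unadjusted p under 0.05. Monocyte and interstitial macrophage genes had a median of 0.12 (13 of 17), alveolar macrophage genes of 0.09 (10 of 13) and dendritic cell genes of 0.08 (7 of 11). The eosinophil median was -0.12 over 5 genes and 0.05 after normexp. In the authors' values the dendritic cell median was -0.14 over 6 genes and the neutrophil median 0.008 over 5 genes (3 above 0). Leaving out 1 array or slide at a time, the neutrophil median ran from 0.07 to 0.25, the monocyte median from 0.06 to 0.14, the dendritic cell median from -0.04 to 0.14 and the eosinophil median from -0.19 to 0.10. The alveolar macrophage median was 0.20 without p53het replicate 6 and 0.05 without slide 5. Mast cell and basophil genes had a median of -0.20 (3 of 12 above 0). It was -0.05 without WT replicate 2 (5 of 12 above 0) and -0.33 without WT replicate 5. Tpsb2 and Tpsab1, the mast cell tryptases, differed by -0.48 ± 0.28 and -0.48 ± 0.39, while Kit, another member, differed by 0.25 ± 0.13.

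Interferon-stimulated genes, which encode antiviral effectors, had estimates above 0 in 24 of 25 (96%), with a median of 0.21. Of the 25, 7 had an unadjusted p under 0.05, all higher, against 2.89% of all genes. Ifit3, an antiviral RNA-binding protein gene, ran from -4.23 through -3.48 to -3.30 in WT and from -4.01 through -3.17 to -2.41 in heterozygous lung. Of the 6 heterozygous arrays, 5 lay above every WT array, and the difference was 0.59 ± 0.21. Isg15, a ubiquitin-like modifier, differed by 0.47 ± 0.22 and Mx1, a dynamin-like antiviral GTPase, by 0.46 ± 0.18. One heterozygous array, replicate 3, had the highest score of all 12 (0.47), and without it the list's median was 0.12. Without WT replicate 2 the genes at an unadjusted p under 0.05 numbered 3. The slides gave medians from -0.07 to 0.44.

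Immediate early genes, which switch on within minutes of a stimulus, had a median of 0.22 with 20 of 22 above 0. Of the 22, 5 had an unadjusted p under 0.05, all higher, against 2.89% of all genes. Nr4a1, an orphan nuclear receptor, ran from -0.50 to 0.16 in WT and from -0.32 to 1.54 in heterozygous lung, with 5 of 6 heterozygous arrays above every WT array. It differed by 0.68 ± 0.25, Nr4a3 by 0.71 ± 0.26 and Klf6, a zinc-finger factor, by 0.30 ± 0.08. Fos, the best-known member, differed by -0.15. The score of p53het replicate 2 was -0.35, below every WT array, and the other 5 heterozygous arrays lay between 0.11 and 0.30, above every WT array (-0.20 to 0.05). Without slide 4 the list's median was 0.14.

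Glucocorticoid-responsive genes had a median of 0.19, and 11 of 14 were above 0. Of the 14, 6 had an unadjusted p under 0.05, all higher, against 2.89% of all genes. Per1, a clock gene that glucocorticoids induce, differed by 0.86 ± 0.29, from -0.82 to 1.93 within the slides. Ddit4, a stress-induced inhibitor of mTOR, differed by 0.61, and Mt2A belongs to this list as well. Fkbp5, another widely used glucocorticoid target, differed by 0.04 and Zbtb16 by -0.54. Cholesterol and fatty acid synthesis genes had a median of 0.16 (19 of 20 above 0). That median was 0.09 without WT replicate 2 and 0.0012 without slide 3.

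The airway lists lay below 0. Club and secretory cell genes had a median of -0.23, and 2 of 12 were above 0. The main club cell product, Scgb1a1, ran from 4.95 to 5.14 in WT and from 4.82 to 5.56 in heterozygous lung and differed by 0.03 ± 0.08. The list's lowest estimates were those of Clca1 and Bpifa1. Muc5b differed by -0.48, Scgb3a1 by -0.47, Cyp2a3 by -0.28, Agr2 by -0.17 and Spdef by -0.03. Reg3g had the highest estimate (0.42) but was well above background on 0 arrays of either genotype. Muc5b was so on 2 WT arrays and 1 heterozygous array. Clca1, a secreted goblet cell protein gene, ran from -5.92 through -4.49 to -2.66 in WT and from -7.79 through -5.64 to -4.88 in heterozygous lung, where 4 of 6 arrays were well above background. It differed by -1.73 ± 0.49 (3.32-fold), was lower on 5 of 5 slides and had an adjusted p of 0.862. It was lower in the exposed rats as well, by -1.32 (Mitsui-7) and -0.67 (NM-403), and neither was called. Bpifa1, an airway surface defence protein gene, differed by -0.94 ± 0.63. The list's median was -0.06 after normexp background correction and -0.05 with array weights, and it ran from -0.37 to -0.10 over the arrays and slides left out.

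Ciliated cell genes, which encode parts of the axoneme and its motors, had small differences with a shared sign: 1 of 16 was above 0, with a median of -0.08, and all 16 intervals lay within 1.5-fold. After normexp 4 of 16 were above 0, with a median of -0.07. Foxj1, the master regulator of ciliated cells, differed by -0.06 and Rsph1, a radial spoke gene, by -0.22 ± 0.10. Within the slides the median ran from -0.31 to 0.07. In the exposed rats the ciliated list lay below 0 too, with a median of -0.32 and 0 of 16 above 0 under Mitsui-7 and of -0.18 and 1 of 16 under NM-403. Of the 1140 genes with an unadjusted p under 0.05 in vehicle, 7 had such a p and the same sign in both exposed comparisons. All 7 were lower in heterozygous lung, and none is on the ciliated cell list. They came from a search over all genes and are named after their values were seen. They include Sntn, which encodes a protein of ciliary tips (-0.22, -0.40 and -0.23 in vehicle, Mitsui-7 and NM-403), and Spata17 (-0.46, -1.05 and -0.53), which was called under Mitsui-7 (adjusted p = 0.043). The others, in the same order, are Gp2 (-0.49, -1.04 and -0.54), Neurl1 (-0.22, -0.31 and -0.24) and Tmc5 (-0.33, -0.62 and -0.35). LOC103694082 (-1.08, -0.85 and -1.03) and RGD1306233 (-0.25, -0.45 and -0.29) complete the 7. Over all 24473 genes, 76 had the sign of the unexposed rats with such a p in both exposed comparisons. The fit shares each gene's estimate of spread between the comparisons, so the 2 counts are not directly comparable. Among all genes at such a p, 627 were higher and 1568 lower under Mitsui-7, and 322 and 454 under NM-403.

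The lowest list was that of adipocytes, with a median of -0.48 and 3 of 12 above 0. WT replicate 2 stood apart in it. Ucp1, the uncoupling protein of brown fat, was at -0.28 in that rat and between -8.14 and -6.07 in the other 11. Adipoq, which encodes adiponectin, was at -1.35 there and between -7.25 and -2.31 elsewhere. Without WT replicate 2 the list's median was -0.21 (-0.24 without WT replicate 3), and its 1 gene with an unadjusted p under 0.05, Retn (-1.80 ± 0.84), no longer had one.

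Skeletal muscle genes showed the same array. The list's score was 2.61 in WT replicate 2 and between -0.62 and -0.20 in the other WT rats, while in the heterozygous rats it ran from -0.67 to 0.77. Myh1, a fast myosin heavy chain, was at -0.29 in WT replicate 2, at -3.42 and -3.70 in p53het replicates 5 and 6, and between -9.61 and -6.28 in the rest. The list's median difference was -0.03 with all 12 arrays and 0.44 without WT replicate 2. Whether pieces of muscle or fat were taken with some of the lobes was not tested. Without that array the whole comparison called 0 genes, with 1002 at an unadjusted p under 0.05.

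**Figure D5:**
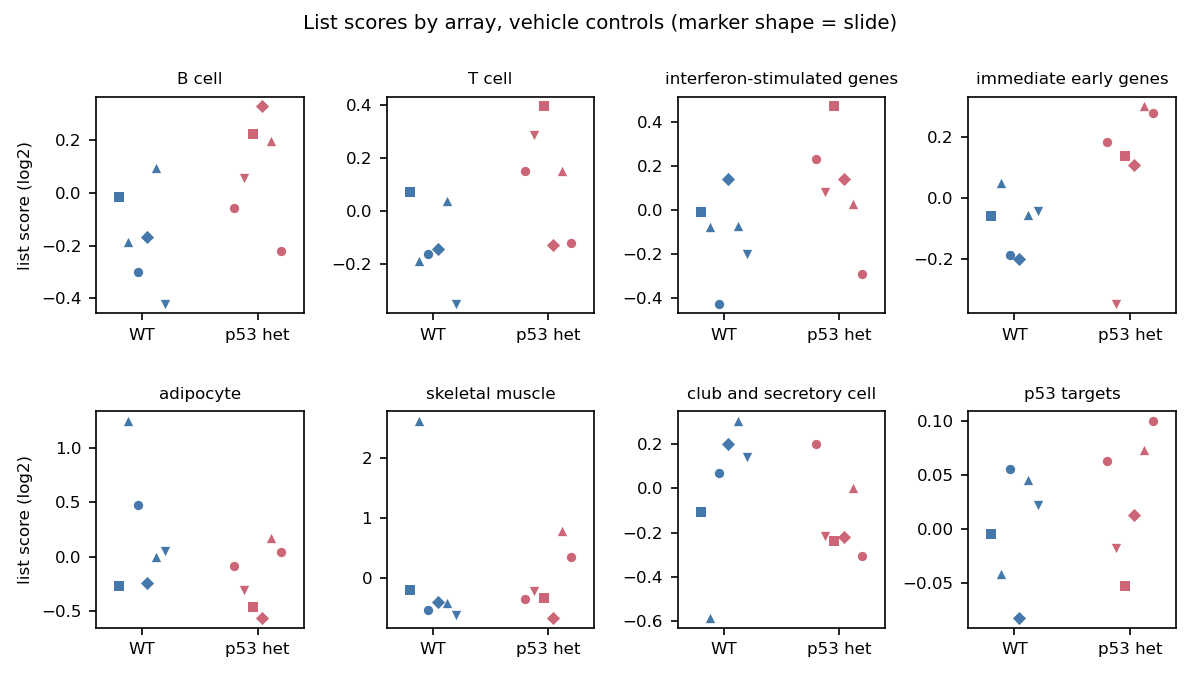
Each point is 1 control array (WT blue, p53 heterozygous red, marker shape for the slide), at the median deviation of the list's genes from their means over the 12 arrays, in log2 units. Scores overlap between genotypes in every panel; 1 WT array lies at 2.61 for skeletal muscle and at 1.25 for adipocyte genes.

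Several pathway lists had medians close to 0: 0.01 for NRF2 and oxidative stress genes, 0.01 for mitochondrial respiration, -0.01 for fatty acid oxidation, 0.03 for glycolysis, 0.05 for extracellular matrix, -0.02 for complement and -0.02 for chemokine ligands. Heat shock and chaperone genes had a median of -0.05 (4 of 15 above 0) and cytochrome P450 and xenobiotic enzymes of -0.06 (8 of 22). Further from 0, Schwann cell and neuron genes had a median of -0.11 (5 of 13 above 0), which was -0.0019 without WT replicate 2 and 0.04 after normexp. Erythroid genes had a median of -0.14 (3 of 12 above 0), which ran from -0.28 to -0.03 over the arrays and slides left out. The median and the mean of a list had opposite signs for MHC class I (0.05 and -0.04), mitochondrial respiration (0.01 and -0.02) and skeletal muscle (-0.03 and 0.06), among others with both near 0.

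The exposed rats compare the same genotypes in other animals. In the same fit, 10 genes (0.0409%) were called between the genotypes under Mitsui-7, where 2195 (8.97%) had an unadjusted p under 0.05. Under NM-403, 0 were called and 776 (3.17%) had such a p. The 10 were Nppb, Ptgis, Fam25a and Upk3b (higher) and Calml3, Spata17, Spata33, Terf2ip, Ubxn11 and Wdr54 (lower). In the unexposed rats 9 of the 10 differed by -0.46 to 0.01. The other, Nppb, which encodes brain natriuretic peptide, was not well above background on any of the 12 unexposed arrays. The number called under Mitsui-7 ran from 1 to 25 with other choices of scaling and slide term.

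The signs of the unexposed rats were set beside those of the exposed rats. Of the 1140 genes with an unadjusted p under 0.05, 48.7% had the same sign under Mitsui-7 and 49.4% under NM-403, against 50.9% and 47.2% of all genes. Split by direction, 38.9% of the 707 higher genes and 64.7% of the 433 lower genes kept their sign under Mitsui-7, where 38.4% of all genes were above 0. The lymphoid and interferon medians had the opposite sign under Mitsui-7, as did the median over all genes. The latter was 0.02 in vehicle, -0.04 under Mitsui-7 and -0.02 under NM-403. Interferon-stimulated genes had a median of 0.21 in vehicle, -0.28 under Mitsui-7 (1 of 25 above 0) and 0.10 under NM-403 (21 of 25). B cell genes had medians of 0.30, -0.08 (4 of 16 above 0) and 0.16, and T cell genes of 0.21, -0.07 (4 of 21) and 0.17. Other lists kept their sign under Mitsui-7: immediate early (0.13, 18 of 22 above 0) and glucocorticoid-responsive genes (0.15, 11 of 14). Club and secretory cell genes (-0.27, 2 of 12) and mast cell and basophil genes (-0.39, 1 of 12) did so too. The adipocyte median was 0.06 there. Under NM-403 these 5 medians were -0.02, 0.08, -0.13, -0.16 and -0.47. The interaction of genotype with exposure, which tests such differences gene by gene, called 0 genes for Mitsui-7 (1644, or 6.72%, at an unadjusted p under 0.05) and 0 for NM-403 (956, or 3.91%). With slide as a random block or with the authors' values, 2 and 3 genes were called for Mitsui-7.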

How the data were processed

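The deposited scanner files hold intensity per spot from Agilent Feature Extraction 12.0.1.1, per the file headers: processed signals, background-subtracted, with flags for outliers and for spots well above background. The authors' deposited matrix holds log2 values of 11555 probes, and it tracked the values used here (r from 0.995 to 0.999). Its columns have medians from -0.08 to 0.07, and the sources used here do not say how its probes were chosen. From the scanner files, log2 processed signals minus each array's 75th percentile were averaged per probe, without outlier-flagged spots. Each gene name (15221 of 24473 with a symbol in RefSeq, assembly GRCr8) was represented by its brightest probe, where well above background on at least 5 of 35 arrays and measured on at least 3 arrays of each group. limma 3.58.1 (R 4.3.3) fitted all 35 arrays, with a mean per group and slide as a fixed block, and adjusted p over all genes. The script was tested on simulated data.

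The control groups share replicate numbers. Arrays of the same number deviated together with r from -0.39 to 0.64 (mean 0.14, against -0.02 for other pairs). So few values cannot settle whether the numbers pair the rats, and the main fit did not use the numbers. Alternatives changed the slide term, the arrays fitted, the scaling, the background correction, the filters, the probe rule and the weights, and left out each control array and slide in turn. Named genes were Cdkn1a and Mdm2 and, since none was called, the 6 of smallest p in each direction. Up to 4 members of each list, those of largest and smallest moderated t, were also named. Others are named for their roles or after their values were seen. Not every gene that this rule names is reported here. The members and lists were chosen with earlier results of these data known.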

Additional observations from a re-analysis of the deposited data

Results flagged for a closer look

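In 134 sets of 6 values (list scores and named genes, by genotype), 9 held an array whose gap to its nearest neighbour was too large a share of the range for Dixon's test at the 95% level; chance alone gives about 1 in 20. In the WT rats these were replicate 2 for skeletal muscle (score 2.61, the others at most -0.20), replicate 4 for heat shock and chaperone genes (-0.19, the others at least 0.03), replicate 5 for mast cell and basophil genes (-0.57, the others at least 0.13) and replicate 3 for Mdm2 (-1.21, the others at least -0.88). In the heterozygous rats, replicate 5 stood high for circadian clock genes (0.38, the others at most 0.04) and fatty acid oxidation genes (0.0805, the others at most -0.0019). Replicate 6 stood high for alveolar type 1 cell genes (0.33, the others at most -0.01), and replicate 4 for platelet and megakaryocyte genes (0.32, the others at most -0.02). Replicate 2 stood low for immediate early genes (-0.35, the others at least 0.11).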

How the results depend on the processing

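The count of 0 called genes became 5 with array weights and, over the left-out arrays and slides, ran from 0 to 1 (Edn1, without p53het replicate 3). The genes at an unadjusted p under 0.05 (1140) numbered 484 with no slide term, 476 in the control arrays with no slide term, 618 with the replicate block in the control arrays, 1867 after normexp, 612 in the authors' values and 2526 with array weights, and 824 to 1662 over the left-out arrays and slides. The replicate block with slide over all 35 arrays changed no call. The median absolute difference stayed between 0.06 and 0.12 over the alternatives and left-out arrays, and was 0.15 to 0.35 within single slides. Under Mitsui-7, the 10 genes called became 2 with no slide term, 25 with slide as a random block, 5 after quantile normalization and 1 after normexp. The Mitsui-7 interaction called 2 genes with slide as a random block and 3 in the authors' values. The B cell median was 0.0055 in the authors' values, and 0.064 and 0.66 within slides 1 and 4. Within slides, the interferon median was 0.44 and -0.069 (slides 2 and 4), the immediate early median 0.44 and -0.25 (1 and 5), the T cell median -0.0097 and 0.75 (4 and 5) and the adipocyte median 0.15 (2). Cdkn1a turned to 0.0075 in the 3 settings with no slide term, the replicate block among them, and ran from -0.106 to 0.031 over the left-out arrays and slides, Mdm2 from -0.016 to 0.12, and Cd22 from -0.886 to 0.012. Leaving out WT replicate 2 moved the skeletal muscle median from -0.03 to 0.44 and the adipocyte median to -0.21. The causes of these changes were not tested. With 6 rats a group and 4666 of the tested genes below background on some control array, a gene of median standard error had to differ by 1.72-fold to be called alone.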
